A study of Mus musculus with 12 samples.

Results

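The replication-dependent histone genes encode the core histones H2A, H2B, H3 and H4 and the somatic linker histones, and 73 of the 77175 genes in the deposited count table carry such a symbol. They were chosen by symbol alone, as H1f, H2ac, H2bc, H3c or H4c followed by digits only. Of the 73 genes, 11 are linker histone genes (H1f) and 62 are core histone genes, with 18 for H2A, 19 for H2B, 12 for H3 and 13 for H4. In the annotation used for gene order, 54 lie on chromosome 13, 10 on chromosome 3, 4 on chromosome 11, 3 on chromosome 6 and 2 on chromosome 15.

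Polyadenylated RNA was sequenced from 12 mouse libraries in 4 groups of 3. Mouse B16-F10 melanoma lines grew as tumors in NOD-SCID mice, a strain that lacks its own T and B cells. All mice received CD8+ T cells of OT-1 mice, which bear a receptor for an ovalbumin peptide and had been activated with beads against CD3 and CD28, and tumors were taken 2 days after transfer. The groups are named by their labels. OVA T cells (genotype C57BL/6J-OT-I) were pulled with CD8 beads from B16-F10-OVA tumors, and B16-F10 T cells, of the same genotype, from B16-F10 tumors. OVA tumor cells were sorted by fluorescence for GCaMP6s, a calcium sensor, from B16-F10-OVA tumors. That line carries lentiviral ovalbumin (Neo) and GCaMP6s (Puro), both driven by the EF1A promoter. B16-F10 tumor cells were sorted in the same way and carry the GCaMP6s construct alone. Nothing in the labels tells if a group's 3 libraries are from different mice. The p-values therefore measure library-to-library spread, part or all of which may be technical.

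Libraries held 15494683 to 33263730 counts. The cell labels were checked with marker lists. The 20 T cell markers summed to 1669 ± 2.72 and 1693 ± 7.26 counts scaled to a common library total (CPM) in OVA and B16-F10 T cells, and to 275 ± 3.50 and 7.39 ± 0.467 CPM in OVA and B16-F10 tumor cells (SD, n = 3). The sums of 12 melanoma markers were 111 ± 3.45 and 247 ± 3.87 CPM in OVA and B16-F10 T cells, and 10055 ± 9.99 and 23666 ± 48.3 CPM in OVA and B16-F10 tumor cells. Endothelial markers were high in the T cell libraries as well. The 12 endothelial markers summed to 9120 ± 33.1 and 9995 ± 53.8 CPM in OVA and B16-F10 T cells, and to 3958 ± 24.3 and 43.4 ± 1.30 CPM in OVA and B16-F10 tumor cells. The endothelial genes Erg, Cldn5 and Emcn and the T cell genes Cd2, Cd3e, Cd6, Skap1, Trac and Trbc2 were at 0 counts in the last of these groups. In such mixtures, fewer cells of a type and less RNA per cell cannot be told apart.

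Core histones form the octamer that DNA wraps around, and linker histones bind where the DNA enters and leaves it. Replication-dependent histone genes are transcribed mainly in S phase, have no introns as a rule, and give mRNAs that end in a conserved stem-loop in place of a poly(A) tail. The stem-loop binding protein holds that structure, and the U7 small nuclear RNA guides the cut after it. H1f0 and H1f10 are linker histone genes of the other kind, with polyadenylated mRNA that does not depend on replication. Libraries made with poly-T beads, as here, therefore take up most core histone mRNA poorly. The values below describe the polyadenylated or otherwise captured part of these mRNAs and not their total.

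The stem-loop was read from the GENCODE M21 transcripts because it marks the mRNAs that normally end without a poly(A) tail, and the libraries were made with poly-T beads. The histone stem-loop, a 6-base stem that opens with GG and closes with CC around a 4-base loop, was searched on the transcript strand and found in the longest transcript of 43 members, in 6 versions, and in 89 of the 55450 genes of that annotation (0.161%). No loop was found in the longest annotated transcript of the other 30 members, which include H1f0, H1f10, H2bc4 and H2bc21. Below, capitals mark the 6 paired bases on each side of the 4-base loop, and up to 5 annotated bases are given on each side.

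H1f2: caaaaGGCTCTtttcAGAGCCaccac
H2ac25: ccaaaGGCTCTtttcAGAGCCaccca
H2ac19: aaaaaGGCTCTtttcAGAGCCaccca
H2ac24: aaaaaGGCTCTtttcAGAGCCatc
H3c3: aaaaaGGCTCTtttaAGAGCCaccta
H4c9: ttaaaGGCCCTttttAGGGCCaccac

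The version of H1f2, H2ac25, H2ac19 and H2ac24 was found in 25 members and other versions in 18. The 11 H4 genes with a loop carried 3 versions that no other family had. Transcripts differ in how far the annotation runs past the loop. It runs 840 bases past it in H1f2, 1643 in H2ac25, 330 in H4c9, 74 in H3c3, 35 in H2ac19 and 3 in H2ac24. The 18 core genes with at least 100 annotated bases past the loop had a median level of 0.597 CPM over the 12 libraries, the 21 with fewer had 0.401 CPM, and the 23 with no loop in their transcript had 0.162 CPM. The ranges of these 3 sets overlapped, from 0.0651 to 7.21 CPM, from 0 to 5.92 CPM and from 0 to 12.2 CPM. Some of the 23 have short annotated transcripts, such as H4c12 with 312 bases, H2bc13 with 381 and H3c10 with 411. A loop past the annotated end would be missed there. These 3 genes and others of the 23 also belong to a row of adjacent genes, described further on, at 0 counts in B16-F10 tumor cells. Their zeros lower the level over the 12 libraries.

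Promoters of 62 members were matched by symbol in RefSeq (GRCm38.p6, 250 bases before to 50 after the start). Both strands were searched for 4 motifs. The octamer ATTTGCAT, the element of H2B promoters, was found in 6 of 14 H2B and 6 of 17 H2A promoters and in no H1, H3 or H4 promoter, and in 1.74% of all 32851 promoters. CCAAT was found in 82.3% of the member promoters and 37.4% of all promoters, TATAAA in 54.8% and 13.6%, and AAACACA, the H1 box, in 5 of 10 H1 promoters and 7.18% of all. None of the motifs contains another. The 4 promoters below are those of the most abundant linker histone genes and of 2 core genes described further on, with motif matches in capitals.

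H1f0 (chr15:79027962-79028261, plus strand): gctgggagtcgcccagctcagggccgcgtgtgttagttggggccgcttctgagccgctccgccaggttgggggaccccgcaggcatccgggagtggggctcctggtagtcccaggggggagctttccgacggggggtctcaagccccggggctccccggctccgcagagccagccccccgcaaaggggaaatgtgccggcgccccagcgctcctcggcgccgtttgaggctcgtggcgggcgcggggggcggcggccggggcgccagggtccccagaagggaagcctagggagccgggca
H1f2 (chr13:23738557-23738856, plus strand): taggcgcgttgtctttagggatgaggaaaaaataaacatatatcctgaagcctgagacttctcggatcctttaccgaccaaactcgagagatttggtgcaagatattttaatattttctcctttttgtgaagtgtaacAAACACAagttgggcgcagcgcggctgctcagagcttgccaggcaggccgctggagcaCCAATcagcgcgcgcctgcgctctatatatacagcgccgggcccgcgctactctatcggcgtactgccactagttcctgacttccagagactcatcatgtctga
H2ac24 (chr13:21833426-21833725, minus strand): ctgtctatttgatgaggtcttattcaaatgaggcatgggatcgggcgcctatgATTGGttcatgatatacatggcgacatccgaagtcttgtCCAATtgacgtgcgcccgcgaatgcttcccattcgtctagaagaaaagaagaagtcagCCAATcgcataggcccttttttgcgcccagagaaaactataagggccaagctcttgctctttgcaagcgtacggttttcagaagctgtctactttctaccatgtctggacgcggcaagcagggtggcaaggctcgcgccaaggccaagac
H4c9 (chr13:22041313-22041612, minus strand): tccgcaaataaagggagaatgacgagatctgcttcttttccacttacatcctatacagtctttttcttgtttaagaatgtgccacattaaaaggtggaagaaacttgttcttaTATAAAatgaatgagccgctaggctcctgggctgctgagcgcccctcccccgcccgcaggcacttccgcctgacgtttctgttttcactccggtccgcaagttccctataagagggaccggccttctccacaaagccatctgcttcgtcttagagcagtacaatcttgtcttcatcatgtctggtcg

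H1f0 shows none of the 4 motifs in this window, H1f2 shows a CCAAT box and the H1 box, H2ac24 shows CCAAT on both strands, and H4c9 shows TATAAA.

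Most members were barely detected. 71 of the 73 genes had at least 1 count in some library, 32 had counts in all 12, and H2bc1, a testis gene, and H2ac23 had 0 throughout. Only 24 reached a mean of 1 CPM in any group and 3 reached 10 CPM, namely H1f0, H1f2 and H2bc4. Per kilobase of annotated exon, H1f0 had the highest level in all 4 groups, with 34.3 and 52.9 CPM per kb in OVA and B16-F10 T cells, and 74.5 and 67.5 CPM per kb in OVA and B16-F10 tumor cells. H1f2 followed on this scale in the first 3 of these groups, with 31.2, 34.4 and 38.5 CPM per kb. In B16-F10 tumor cells, H1f2 had 16.3 and H2bc4 16.9 CPM per kb.

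The summed levels differed between groups in another order than cell cycle genes did. The 62 core genes summed to 45.4 ± 1.46 and 53.4 ± 2.12 CPM in OVA and B16-F10 T cells, and to 72.2 ± 2.13 and 45.8 ± 2.99 CPM in OVA and B16-F10 tumor cells. The 11 linker genes summed to 123 ± 1.94 and 169 ± 3.86 CPM in the T cell groups and to 220 ± 2.52 and 168 ± 1.84 CPM in the tumor cell groups, in the same order of labels. OVA tumor cells thus had 1.58 times the core sum and 1.31 times the linker sum of B16-F10 tumor cells, with no overlap between libraries. A list of 32 S phase genes (MCM helicase subunits, PCNA, ribonucleotide reductase and others) summed to 2816 ± 16.9 CPM in OVA tumor cells, against 4086 ± 14.3 CPM in B16-F10 tumor cells, a ratio of 0.689. Without Cdk2, whose gene overlaps another as described further on, the list had 2558 ± 11.7 CPM in OVA tumor cells against 3244 ± 23.5 CPM in B16-F10 tumor cells, a ratio of 0.789. In T cells the list had 1561 ± 14.03 CPM with the OVA label, against 1776 ± 22.2 CPM with the B16-F10 label.

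**Figure D1:**
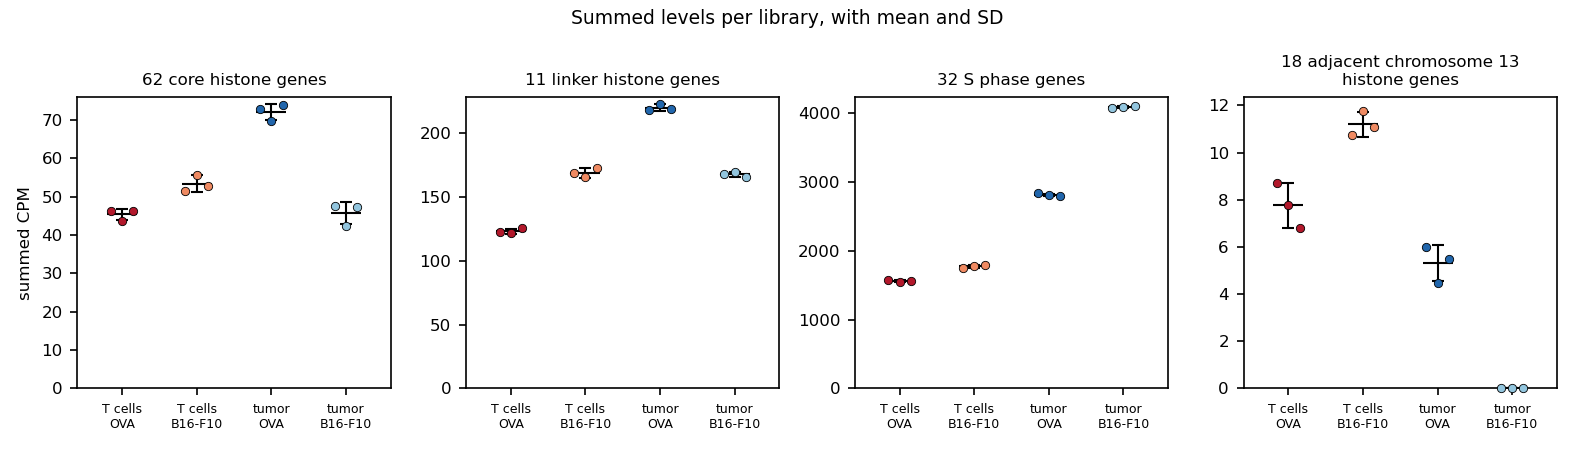
Summed CPM in each library (points) with the mean and SD of 3 libraries (black), for the 62 core histone genes, the 11 linker histone genes, 32 S phase genes and 18 adjacent histone genes of chromosome 13. Tumor cells labelled OVA have the highest core and linker sums, B16-F10 tumor cells have the highest S phase sum, and the 18 adjacent genes are at 0 in all 3 libraries of B16-F10 tumor cells.

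Among linker histones, H1f0 and H1f2 together made up nearly all counts. H1f0, the linker histone that accumulates in differentiated cells, had 67.4, 71.0 and 73.0 CPM in OVA T cells, against 109, 107 and 110.4 CPM in B16-F10 T cells. It had 151, 155 and 154 CPM in OVA tumor cells, against 138, 140.3 and 138 CPM in B16-F10 tumor cells. No 2 groups overlapped, and the OVA T cells were lowest. With edgeR's quasi-likelihood test and Benjamini-Hochberg adjustment over all genes tested, H1f0 was lower by a log2 fold change of -0.57 (SE 0.0316, adjusted p = 2.04e-14) in OVA T cells against B16-F10, and higher by 0.31 (SE 0.0211, adjusted p = 4.83e-12) in OVA tumor cells against B16-F10. The difference between these effects, T cells minus tumor cells, was -0.88 (SE 0.0375, adjusted p = 3.83e-17).

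H1f2, a somatic linker histone gene of the replication-dependent kind, followed another pattern. It had 50.6, 47.2 and 48.0 CPM in OVA T cells, against 52.9, 52.9 and 55.1 CPM in B16-F10 T cells. It had 60.7, 61.5 and 58.1 CPM in OVA tumor cells, against 25.9, 25.4 and 24.8 CPM in B16-F10 tumor cells. Only the last group stood far from the others. The log2 fold change was 1.41 (SE 0.0416, adjusted p = 3.96e-19, edgeR) in OVA tumor cells against B16-F10. In T cells it was -0.08 (SE 0.0404, adjusted p = 0.114, edgeR), which missed the threshold of 0.05. It passed with library totals in place of trimmed-mean (TMM) factors and with T cell markers as the scale, at -0.14 and -0.12.

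The balance of the pair shifted across the 4 groups. The ratio of H1f2 to H1f0 counts was 0.691 ± 0.0519 and 0.493 ± 0.00764 in OVA and B16-F10 T cells, and 0.393 ± 0.0134 and 0.183 ± 0.00386 in OVA and B16-F10 tumor cells (SD, n = 3). It did not overlap between any 2 groups, and as a ratio within a library it does not depend on the scaling. H1f0 took 57.2% ± 2.02 and 64.3% ± 0.476 of the linker histone counts in OVA and B16-F10 T cells, and 69.5% ± 0.645 and 82.8% ± 0.333 in OVA and B16-F10 tumor cells.

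**Figure D2:**
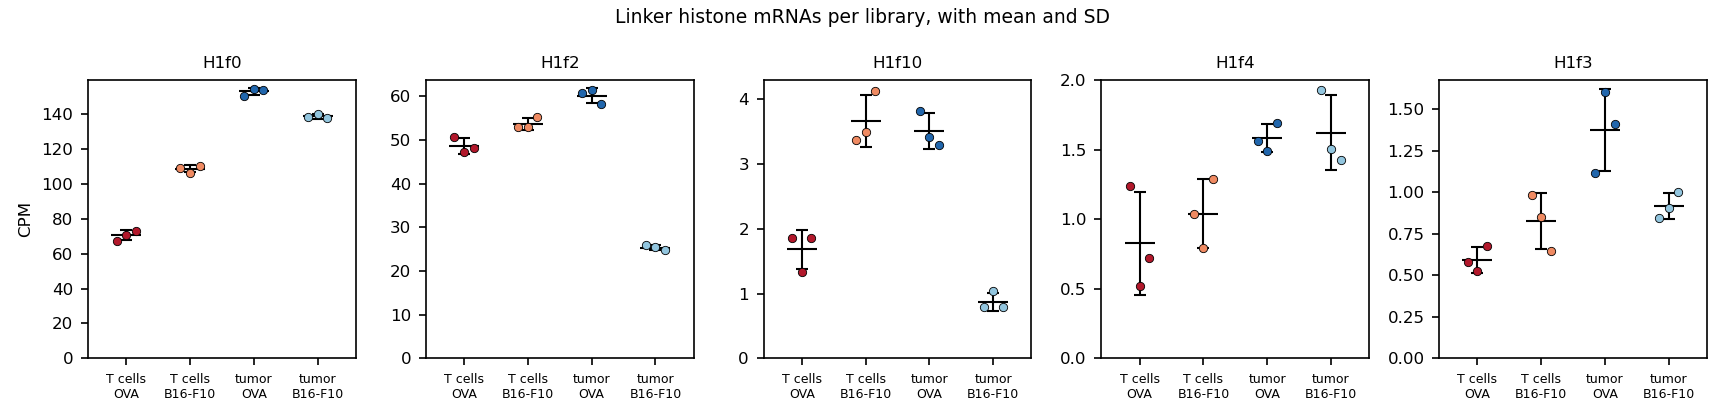
CPM of the 5 linker histone genes that reached 1 CPM in a group, per library (points) with mean and SD (black), each panel on its own axis from 0. H1f0 is lowest in OVA T cells, H1f2 is lowest in B16-F10 tumor cells at 24.8 to 25.9 CPM, and H1f10 is lower in OVA T cells and in B16-F10 tumor cells than in the other 2 groups.

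The other linker genes were rare. H1f10, the replication-independent linker histone H1x, had 1.85, 1.34 and 1.87 CPM in OVA T cells, against 3.37, 3.50 and 4.13 CPM in B16-F10 T cells. It had 3.82, 3.41 and 3.30 CPM in OVA tumor cells, against 0.799, 1.03 and 0.792 CPM in B16-F10 tumor cells. Its OVA effects therefore ran in opposite directions. The log2 fold change was -1.03 (SE 0.186, adjusted p = 4.25e-05, edgeR) in T cells and 2.16 (SE 0.197, adjusted p = 7.76e-10, edgeR) in tumor cells, and their difference was -3.20 (SE 0.262, adjusted p = 3.58e-11, edgeR). H1f3 averaged 1.37 ± 0.246 CPM in OVA tumor cells, against 0.918 ± 0.0791 CPM in B16-F10 tumor cells, a log2 fold change of 0.72 (SE 0.253, adjusted p = 0.0129, edgeR). With library totals as the scale that call was lost, at 0.55. H1f4 averaged 1.58 ± 0.0997 CPM in OVA tumor cells, against 1.62 ± 0.269 CPM in B16-F10 tumor cells, and the log2 fold change of 0.14 (SE 0.209, adjusted p = 0.559, edgeR) turned to -0.03 with library totals. H1f5 had 0 counts in B16-F10 tumor cells and 9 to 15 counts in each of the other groups. H1f1, H1f6, H1f7, H1f8 and H1f9, among them the testis and oocyte linker histones, had at most 0.676 CPM in any group.

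The OVA comparison of the tumor cells set the sorted tumor fractions of both lines side by side. These fractions differed in their markers as well. Endothelial markers summed to 3958 CPM in OVA tumor cells against 43.4 CPM in B16-F10 tumor cells, and melanoma markers to 10055 against 23666 CPM. The comparison is therefore one of mixtures and not of melanoma cells alone. 41 members did not pass the filter on low counts, and of the 32 tested 28 were higher and 1 was lower in OVA tumor cells, where 42.0% of all 17418 genes tested were higher and 37.4% lower. The filter keeps a gene that is abundant enough in either group, so the 32 do not stand for all members. Their median log2 fold change was 1.41, beside 0.04 for all genes tested. By family, 7 of 8 H2A genes, 5 of 7 H2B genes, 6 of 6 H3 genes, 6 of 6 H4 genes and 4 of 5 linker genes rose. The 28, the 7 H2A genes and the median take in H2ac24, which had 0 counts in B16-F10 tumor cells. Its zeros helped to delimit a row of adjacent genes described further on, so its call is no support for these counts. Outside that row, 27 of 31 members tested were higher and 1 was lower, with a median of 1.40. Scaled to the 12 melanoma markers, the median of all genes tested was 1.11, with 15431 genes higher and 613 lower. On that scale all 32 members tested, H2ac24 among them, were higher. Scaled to library totals that median was -0.13.

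H2A genes were led by H2ac25, H2ac19 and H2ac24. H2ac25 had 6.84, 6.51 and 6.11 CPM in OVA T cells, against 7.10, 7.57 and 6.45 CPM in B16-F10 T cells. It had 9.08, 10.02 and 9.66 CPM in OVA tumor cells, against 5.97, 5.08 and 6.12 CPM in B16-F10 tumor cells. The tumor cell groups did not overlap (log2 fold change 0.91, SE 0.0955, adjusted p = 8.94e-09, edgeR) and the T cell groups did (-0.07, SE 0.109, adjusted p = 0.659, edgeR). Its annotated transcript overlaps that of Trim17, with which it shares 29.8% of its 100-base windows, so its reads may be divided with that gene.

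H2ac19 overlapped between 3 groups and was lower in the fourth. It had 6.59, 6.10 and 7.63 CPM in OVA T cells, against 6.43, 6.50 and 7.81 CPM in B16-F10 T cells. It had 6.10, 7.68 and 6.88 CPM in OVA tumor cells, against 2.91, 2.84 and 3.54 CPM in B16-F10 tumor cells. The difference between tumor cell groups was a log2 fold change of 1.31 (SE 0.130, adjusted p = 3.27e-09, edgeR). All of its 100-base windows recur in H2ac18 or other annotated genes, so the value of either gene is uncertain. H2ac18 had 43, 13 and 28 counts in OVA tumor cells, against 0, 8 and 0 counts in B16-F10 tumor cells, and was at 0 in 3 of the 6 T cell libraries.

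H2bc4, whose human counterpart is known to give polyadenylated mRNA in non-dividing cells, had 7.71, 8.66 and 8.52 CPM in OVA T cells, against 7.41, 7.97 and 6.78 CPM in B16-F10 T cells. It had 13.9, 11.8 and 14.5 CPM in OVA tumor cells, against 20.8, 18.2 and 19.7 CPM in B16-F10 tumor cells. It was the 1 member that fell in OVA tumor cells, by 0.36 on the log2 scale (SE 0.0723, adjusted p = 1.03e-04, edgeR). Scaled to melanoma markers the direction turned, with a log2 fold change of 0.71 against the median of 1.11 over all genes. H2bc4 took 18.3% ± 1.56 and 13.8% ± 0.876 of the core histone counts in OVA and B16-F10 T cells, and 18.6% ± 1.42 and 42.8% ± 1.03 in OVA and B16-F10 tumor cells.

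H2bc21, known in mouse olfactory neurons as H2be, had the second largest H2B level over the 12 libraries. It averaged 2.35 ± 0.156 CPM in OVA tumor cells, against 3.24 ± 0.470 CPM in B16-F10 tumor cells (log2 fold change -0.28, SE 0.163, adjusted p = 0.116, edgeR), and with melanoma scaling it had 0.78. H2bc8 averaged 2.81 ± 0.739 CPM in OVA tumor cells, against 1.08 ± 0.478 CPM in B16-F10 tumor cells, and rose by 1.52 on the log2 scale (SE 0.259, adjusted p = 1.22e-05, edgeR). H2bc12 rose most of the H2B genes tested. It had 0.992, 1.07 and 1.05 CPM in OVA tumor cells, against 0.141, 0.302 and 0.158 CPM in B16-F10 tumor cells (log2 fold change 2.47, SE 0.371, adjusted p = 2.30e-06, edgeR). The H2B sum did not follow these genes, with 25.9 ± 1.39 CPM in OVA tumor cells against 26.3 ± 1.65 CPM in B16-F10 tumor cells, since H2bc4 held most of it.

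H3 and H4 genes were low and moved one way in tumor cells. The H3 sum was 10.54 ± 0.450 CPM in OVA tumor cells against 3.79 ± 0.332 CPM in B16-F10 tumor cells, and the H4 sum was 10.6 ± 0.676 CPM against 4.00 ± 0.446 CPM, ratios of 2.78 and 2.64. H4c9, the most abundant H4 gene, had 5.08, 3.63 and 4.55 CPM in OVA tumor cells, against 2.16, 1.59 and 1.58 CPM in B16-F10 tumor cells (log2 fold change 1.502, SE 0.171, adjusted p = 3.42e-08, edgeR). H3c3 had 3.19, 2.88 and 2.41 CPM in OVA tumor cells, against 0.846, 1.90 and 0.633 CPM in B16-F10 tumor cells (log2 fold change 1.46, SE 0.261, adjusted p = 2.37e-05, edgeR). H3c1 averaged 1.08 ± 0.276 CPM in OVA tumor cells, against 0.222 ± 0.0556 CPM in B16-F10 tumor cells, and rose by 2.41 on the log2 scale (SE 0.373, adjusted p = 3.54e-06, edgeR). H3c6, H3c15, H4c2 and H4c4 rose by 1.40 to 1.79 on this scale in the same comparison.

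**Figure D3:**
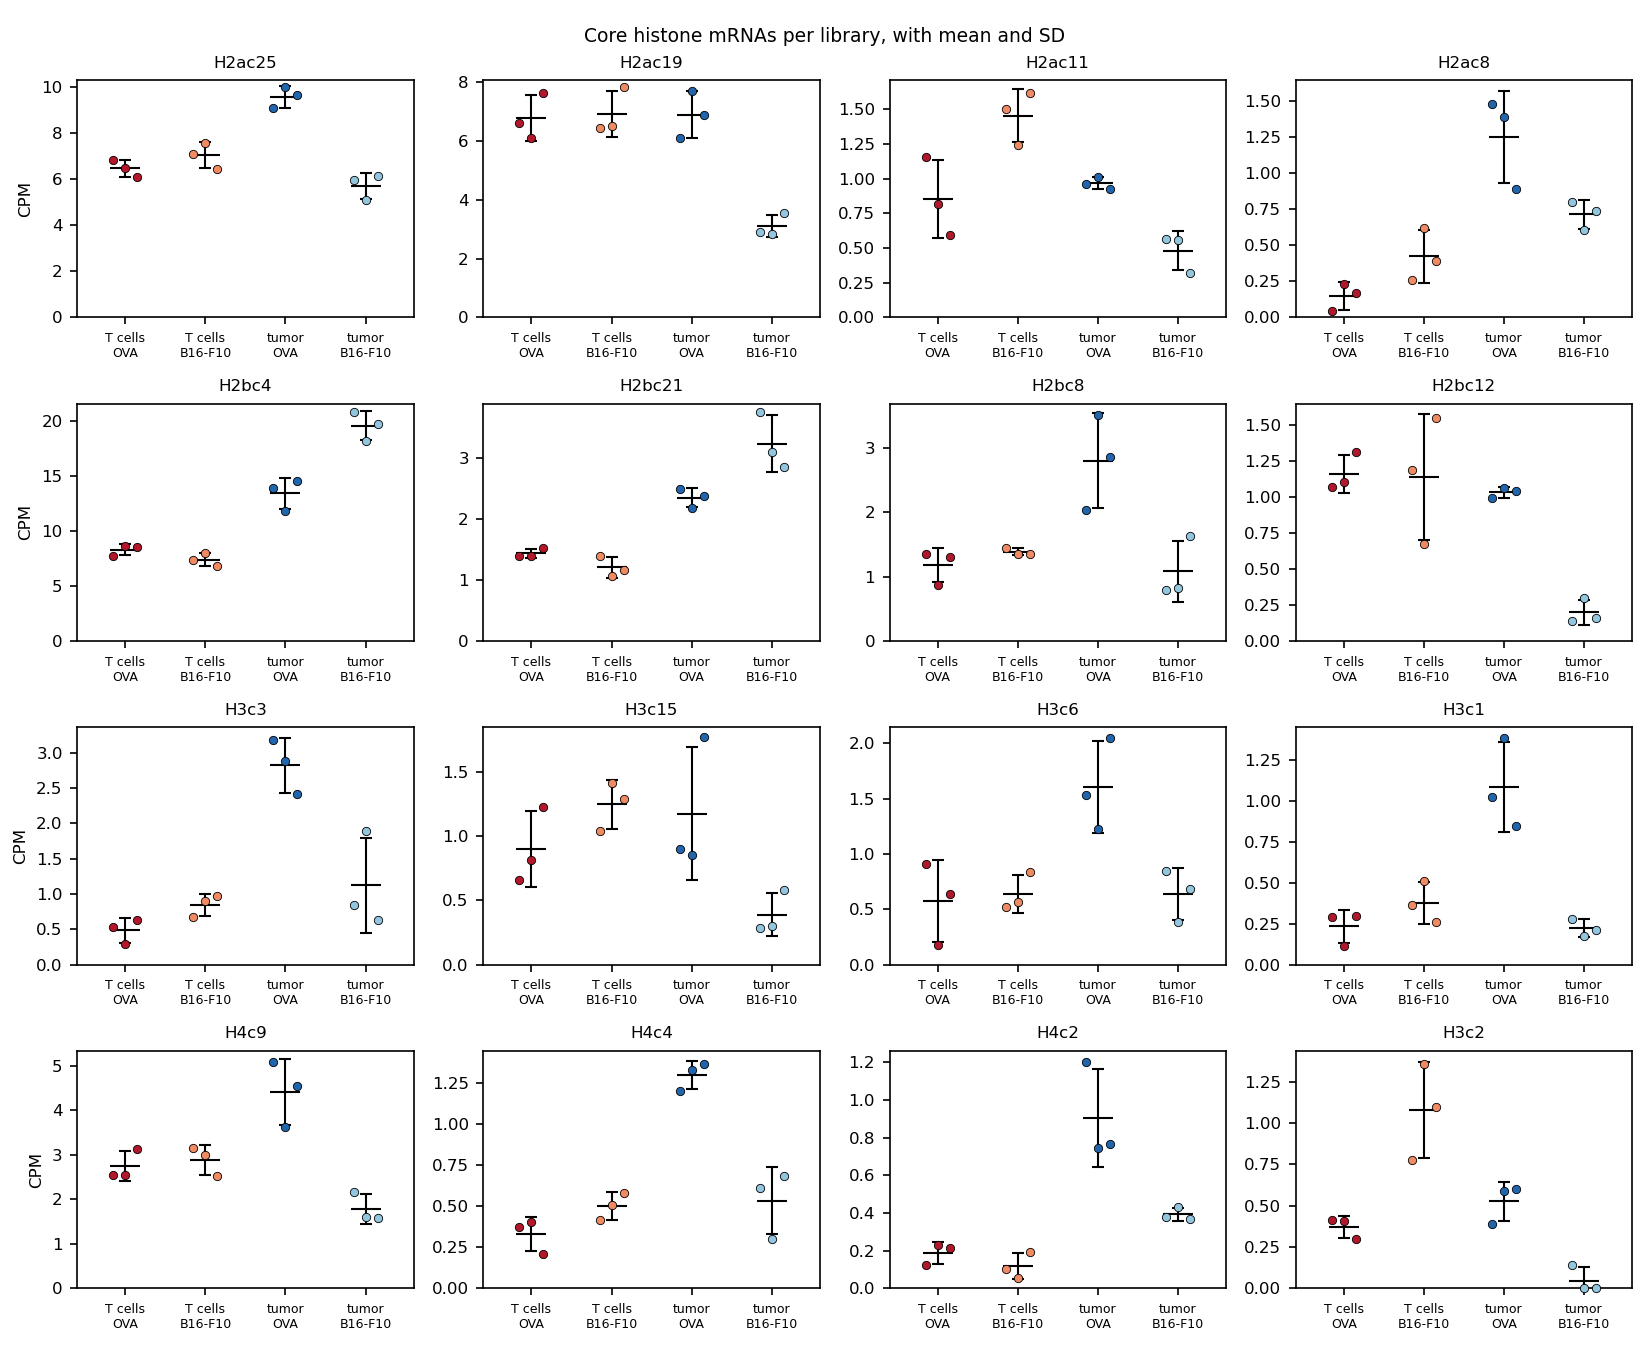
CPM of 16 core histone genes per library (points) with mean and SD (black), each panel on its own axis from 0. H2bc4 and H2bc21 are highest in B16-F10 tumor cells, H3c3, H3c1, H4c9, H4c4 and H4c2 are highest in OVA tumor cells, and H2ac19, H2ac11, H2bc12, H3c15 and H3c2 are lowest in B16-F10 tumor cells.

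The OVA comparison of the T cells gave fewer calls. 51 members did not pass the filter, and of the 22 tested 6 were lower and 0 higher in OVA T cells, where 22.4% of all 16536 genes tested were lower and 23.7% higher. The 6 are H1f0 and H1f10, described above, and H2ac11, H2ac24, H3c2 and H4c18. The share of members called lower, 6 of 22, is near that of all genes. No member was called higher by edgeR, DESeq2 or limma-voom with the filter, and 1 was higher by edgeR without it. At an unadjusted p under 0.05, 1 member was higher and 6 were lower in edgeR's test.

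H3c2 had the lowest fold change among the 22. It had 0.412, 0.407 and 0.297 CPM in OVA T cells, against 0.777, 1.36 and 1.10 CPM in B16-F10 T cells (log2 fold change -1.46, SE 0.359, adjusted p = 0.00140, edgeR). H2ac24 had 5.19, 4.42 and 4.45 CPM in OVA T cells, against 5.70, 7.18 and 7.29 CPM in B16-F10 T cells (log2 fold change -0.45, SE 0.129, adjusted p = 0.00557, edgeR). H2ac11 averaged 0.854 ± 0.282 CPM in OVA T cells, against 1.45 ± 0.190 CPM in B16-F10 T cells (log2 fold change -0.69, SE 0.284, adjusted p = 0.0477, edgeR). That call was lost in 5 of the 6 fits that left out 1 library and with DESeq2 (adjusted p = 0.153). H4c18 averaged 0.326 CPM in OVA T cells, against 0.803 CPM in B16-F10 T cells (log2 fold change -1.30, SE 0.481, adjusted p = 0.0290, edgeR). H2bc4, H2bc21, H2ac19 and H4c9 overlapped between the T cell groups and were not called.

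**Figure D4:**
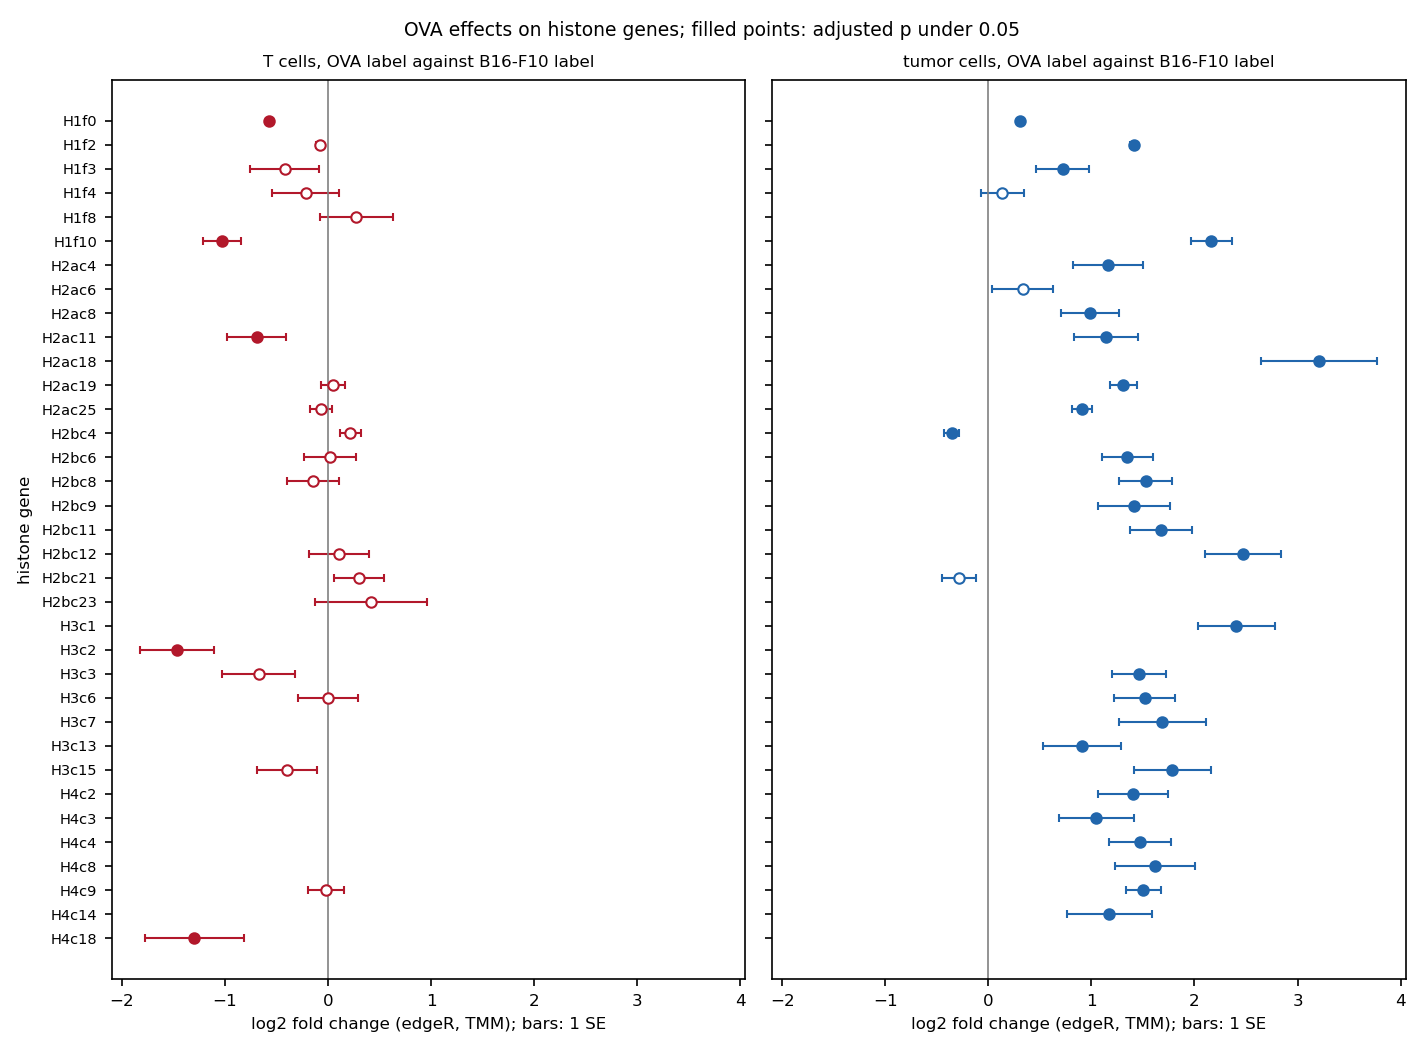
Log2 fold changes (edgeR, TMM scaling) of 35 histone genes for the OVA label against the B16-F10 label, in T cells (left) and tumor cells (right), with bars of 1 SE. Filled points passed an adjusted p of 0.05, a missing point marks a gene below the low-count filter of that comparison, and H2ac24 is left out because it has 0 counts in B16-F10 tumor cells. In tumor cells the points lie right of 0 except those of H2bc4 and H2bc21, and in T cells the filled points lie left of 0.

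The 2 OVA effects were compared in 1 fit over all 12 libraries. Of 38 members tested, 29 had a lower and 1 a higher effect in T cells than in tumor cells, where 41.3% of all 18562 genes tested had a lower and 27.7% a higher one. The median difference was -1.93 on the log2 scale, beside -0.16 for all genes. Both the 29 and the median take in H2ac24, H2bc23, H2bc24, H3c10 and H4c18. These belong to the 18 adjacent genes described below, which were delimited by 0 counts in B16-F10 tumor cells. Their differences of -9.34 to -5.88 have no interpretable size and are no support for the count. H2bc4 was the 1 with the higher effect, by 0.57 (SE 0.127, adjusted p = 2.87e-04, edgeR). Its own effect was 0.22 (SE 0.101, adjusted p = 0.0852, edgeR) in T cells and -0.36, given above, in tumor cells.

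On chromosome 13, 18 adjacent histone genes had not a single count in any library of B16-F10 tumor cells. In annotated order they are H2bc13, H2ac13, H3c10, H2bc14, H4c11, H4c12, H2ac15, H2bc15, H1f5, H3c11, H2ac22, H2bc22, H2bc23, H2ac23, H4c17, H4c18, H2ac24 and H2bc24. Together they had 211, 134 and 160 counts in OVA T cells, 207, 208 and 172 counts in B16-F10 T cells, and 200, 84 and 136 counts in OVA tumor cells. In B16-F10 tumor cells they had 0, 0 and 0 counts. This set was delimited after the counts were seen, as a row of members at 0 with no other protein-coding gene between them, so its zeros are a description and carry no test.

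The levels were 7.76 ± 0.955 and 11.2 ± 0.519 CPM in OVA and B16-F10 T cells, and 5.32 ± 0.778 CPM in OVA tumor cells. A count of 0 allows up to 3 counts over the 3 libraries of B16-F10 tumor cells, or 0.0473 CPM. Against that floor the sum was at least 164-fold higher in OVA T cells, at least 237-fold higher in B16-F10 T cells and at least 112-fold higher in OVA tumor cells. The floor covers counting error only.

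H2ac24 held most of these counts. It had 126, 76 and 105 counts in OVA T cells, 110, 127 and 113 counts in B16-F10 T cells, 108, 35 and 72 counts in OVA tumor cells, and 0 in the libraries of B16-F10 tumor cells. Against the floor it was at least 56.5-fold higher in OVA tumor cells than in B16-F10 tumor cells. Its zeros helped to delimit the set, so no p-value is given for this comparison. The other 17 genes summed to 198, 237, 205 and 0 counts in OVA T cells, B16-F10 T cells, OVA tumor cells and B16-F10 tumor cells. Sequence is shared within this set: 92.2% of the 100-base windows of H2ac24 recur in H2ac23, which had 0 counts everywhere, and 13 of the 18 genes share at least 50% of their windows with another gene. Counts of single genes here are therefore uncertain.

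The genes examined on both sides of the 18 had counts in all 4 groups. They were the nearest protein-coding genes other than members that reached a minimum count summed over all 12 libraries. Any nearer gene with fewer counts was passed over, so the edges of the row of zeros are not shown by them. Zkscan8, Zscan26 and Pgbd1 on one side had 9.02 ± 0.564, 23.3 ± 0.327 and 1.04 ± 0.277 CPM in B16-F10 tumor cells. Zfp184, Prss16 and Vmn1r197 on the other side had 3.33 ± 0.632, 0.573 ± 0.254 and 1.62 ± 0.241 CPM there. The annotation lists no other protein-coding gene within the 18. It lists a pseudogene, H2ac14-ps, with 0 counts in every group, and a long noncoding RNA, Gm11274, with 8, 5, 0 and 0 counts in OVA T cells, B16-F10 T cells, OVA tumor cells and B16-F10 tumor cells. The other 36 histone genes of chromosome 13 summed to 70.9 ± 2.8 and 79.7 ± 1.15 CPM in OVA and B16-F10 T cells, and to 106 ± 0.658 and 59.9 ± 2.41 CPM in OVA and B16-F10 tumor cells.

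**Figure D5:**
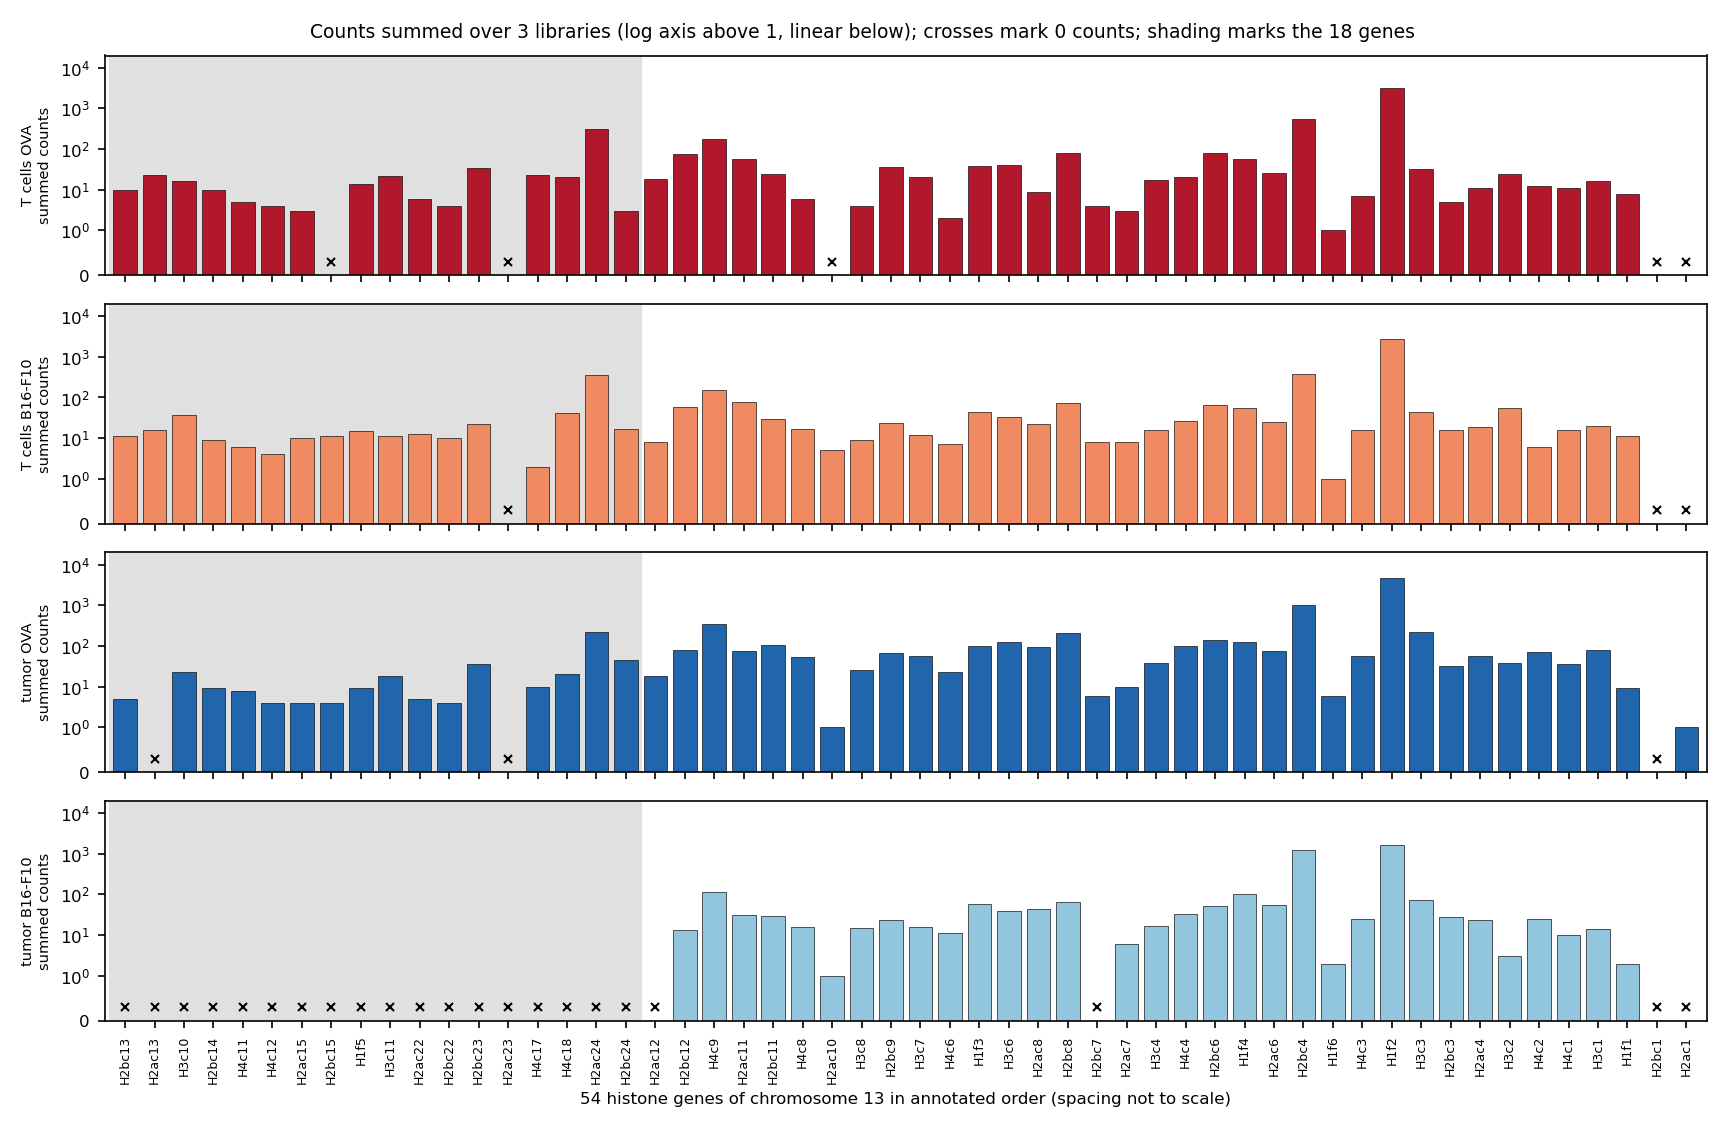
Counts summed over the 3 libraries of each group (log axis above 1) for the 54 histone genes of chromosome 13, in the order of the GENCODE M21 annotation and not to scale, with a cross at genes with 0 counts. The 18 shaded genes are all at 0 in B16-F10 tumor cells and sum to 505, 587 and 420 counts in OVA T cells, B16-F10 T cells and OVA tumor cells, and most genes outside the shading have counts in all 4 groups.

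Zeros among all genes give the background. Of 27409 genes with at least 10 counts over the other 9 libraries, 10.7% were at 0 in B16-F10 tumor cells. This held for 21 of 64 members (32.8%), and for 4 of 47 members outside the 18 (8.51%). The 18 were delimited by their zeros, so the 17 of them that reached 10 counts were at 0 by choice. That choice also lowers the share outside the 18, so these shares are no test. T cell and endothelial sums, given above, were lowest in B16-F10 tumor cells, and so were those of other host cells. The fibroblast sum (13 markers) was 6350 ± 52.3 and 6804 ± 75.3 CPM in OVA and B16-F10 T cells, and 2608 ± 11.3 and 217 ± 4.32 CPM in OVA and B16-F10 tumor cells. The macrophage and monocyte sum (18 markers) was 3404 ± 10.8 CPM in OVA tumor cells, against 535 ± 4.34 CPM in B16-F10 tumor cells. In that list Apoe, a lipid carrier, had 374 ± 1.28 CPM in OVA tumor cells against 518 ± 4.56 CPM in B16-F10 tumor cells. The other 17 markers summed to 3031 ± 10.7 CPM in OVA tumor cells and to 16.9 ± 0.593 CPM in B16-F10 tumor cells. The part of other cell types in the counts of the 18 genes, in the OVA effect of the other members and in the T cell against tumor cell comparisons was not tested.

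Within the OVA label, the core sum in T cells was 0.629 times and the linker sum 0.56 times that in tumor cells. 35 members did not pass the filter, and of the 38 tested 24 were lower and 3 higher in T cells, where 40.2% of all 18562 genes tested were lower and 37.3% higher. The median log2 fold change was -0.83, beside -0.03 for all genes. H3 and H4 genes gave 10 of the lower calls and no higher one. H2ac8, an H2A gene, averaged 0.148 ± 0.0975 CPM in T cells against 1.25 ± 0.317 CPM in tumor cells (log2 fold change -2.99, SE 0.442, adjusted p = 1.08e-06, edgeR). H3c3 averaged 0.487 ± 0.178 CPM in T cells against 2.83 ± 0.389 CPM in tumor cells (log2 fold change -2.35, SE 0.314, adjusted p = 2.19e-07, edgeR). H2ac24 went the other way, with 4.69 ± 0.437 CPM in T cells against 2.67 ± 0.718 CPM in tumor cells (log2 fold change 0.90, SE 0.169, adjusted p = 4.06e-05, edgeR). H1f2 had 48.6 CPM in T cells against 60.1 CPM in tumor cells (log2 fold change -0.17, SE 0.0357, adjusted p = 1.40e-04, edgeR), a call lost with DESeq2 and with its median-ratio factors. The other 2 higher calls were H1f8, the oocyte linker histone, and H2ac13, named here after their values were seen, and H2ac13 rests on 2 of 3 T cell libraries.

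Within the B16-F10 label, 17 of the same 38 members were higher and 4 lower in T cells, where 45.5% of all genes tested were higher and 40.4% lower. The share of members called higher is near that of all genes, and 11 of the 32 tested outside the 18 adjacent genes were higher. With library totals in place of TMM factors 17 were higher and 7 lower, beside 7388 higher and 8651 lower of all 18562 genes, whose median was -0.13. 6 of the 17 belong to the 18 adjacent genes. The median log2 fold change was 0.62 over the 38 members and 0.53 over the 32 outside the 18, beside 0.12 for all genes. H1f2 rose by 1.32 (SE 0.0440, adjusted p = 5.92e-20, edgeR), H2ac19 by 1.40 (SE 0.138, adjusted p = 6.09e-10) and H2bc12 by 2.67 (SE 0.397, adjusted p = 9.18e-07) on the log2 scale. H2ac24 was at least 142-fold higher in B16-F10 T cells. H3c2 had 15, 24 and 17 counts in B16-F10 T cells, against 3, 0 and 0 counts in B16-F10 tumor cells (adjusted p = 1.35e-07, edgeR). The 4 that fell were H2bc4, H2bc21, H4c2 and H1f0. H2bc4 fell by 1.15 (SE 0.0893, adjusted p = 5.91e-12, edgeR) and H2bc21 by 1.16 (SE 0.194, adjusted p = 5.01e-06). H1f0 fell by 0.11 (SE 0.0263, adjusted p = 5.64e-04, edgeR), a call lost with DESeq2 and with its median-ratio factors. These comparisons share libraries with the OVA comparisons above.

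Genes that process and carry histones were mostly lower in OVA tumor cells, while the members tested were mostly higher. These directions hold for TMM scaling. Scaled to melanoma markers, 16 of 18 processing genes, 23 of 23 chaperone and supply genes and 31 of 32 S phase genes were higher. Slbp, Npat, Mcm2, Atrx and Mki67 were higher as well. On that scale 15431 of all 17418 genes tested were higher. The list medians were 0.801, 0.705 and 0.951 in the same order, below the median of 1.11 over all genes. Of 18 genes of histone mRNA transcription and processing, all tested, 3 were higher and 12 lower in OVA tumor cells with TMM scaling. Among all genes tested 42.0% were higher and 37.4% lower. The median log2 fold change of the 18 was -0.265, beside 0.04 for all genes. Slbp, the stem-loop binding protein, averaged 67.4 ± 1.05 CPM in OVA tumor cells against 85.0 ± 2.87 CPM in B16-F10 tumor cells and fell by 0.16 on the log2 scale (SE 0.0311, adjusted p = 4.77e-05, edgeR). Npat, the coactivator of histone transcription, averaged 25.6 ± 1.31 CPM against 43.0 ± 1.89 CPM in the same order and fell by 0.57 (SE 0.0480, adjusted p = 1.84e-10, edgeR). Tut7, which adds uridines to histone mRNA on its way to decay, went the other way, with 123 ± 0.995 CPM in OVA tumor cells against 72.5 ± 1.61 CPM in B16-F10 tumor cells (log2 fold change 0.93, SE 0.0258, adjusted p = 1.17e-19, edgeR). Cdk2, the S phase kinase, averaged 257 ± 6.44 CPM in OVA tumor cells against 842 ± 10.0 CPM in B16-F10 tumor cells. It overlaps the pigment gene Pmel on the opposite strand in the M21 annotation, and since the strand setting is not given its value is uncertain.

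Of 23 histone chaperone and supply genes, 3 were higher and 17 lower in OVA tumor cells, beside 42.0% higher and 37.4% lower among all genes. Mcm2, a helicase subunit that also carries histones at the fork, averaged 195 ± 7.29 CPM in OVA tumor cells against 309 ± 9.09 CPM in B16-F10 tumor cells. Atrx, which with Daxx places the H3.3 variant, averaged 214 ± 1.51 CPM against 484 ± 17.7 CPM in the same order, while Daxx averaged 43.7 ± 1.87 CPM against 37.0 ± 0.395 CPM. Among the 32 S phase genes 7 were higher and 17 lower in OVA tumor cells, beside the same shares of all genes. Their median log2 fold change was -0.115, beside 0.04 for all genes. Mki67, a marker of dividing cells, averaged 130 ± 1.04 CPM in OVA tumor cells against 231 ± 2.33 CPM in B16-F10 tumor cells (log2 fold change -0.66, SE 0.0191, adjusted p = 2.84e-19, edgeR).

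The listed variants, most of them made outside S phase from polyadenylated mRNA, had a larger sum than the 73 members. All members together summed to 169 and 222 CPM in OVA and B16-F10 T cells, and to 292 and 213 CPM in OVA and B16-F10 tumor cells. This holds for the sums and not for each gene, since H1f0 was above several of the variants. 9 of 11 variant symbols were found, and they summed to 1429 ± 3.37 and 1511 ± 13.01 CPM in OVA and B16-F10 T cells, and to 1682 ± 1.93 and 1633 ± 5.53 CPM in OVA and B16-F10 tumor cells. In OVA tumor cells 7 of the 9 were higher and 2 lower, beside 42.0% higher and 37.4% lower among all genes. H3f3b, one of the genes for H3.3, averaged 756 ± 2.91 CPM in OVA tumor cells against 610 ± 7.92 CPM in B16-F10 tumor cells (log2 fold change 0.48, SE 0.0143, adjusted p = 5.08e-19, edgeR). H2ax, the H2A variant phosphorylated at DNA breaks, averaged 35.9 ± 1.21 CPM against 24.02 ± 0.956 CPM in the same order (log2 fold change 0.75, SE 0.0479, adjusted p = 1.35e-12, edgeR).

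In OVA T cells against B16-F10, 4 of 18 processing genes were higher and 2 lower, 3 of 23 chaperone and supply genes were higher and 8 lower, 1 of 9 variants was higher and 5 lower, and 2 of 32 S phase genes were higher and 13 lower, beside 23.7% higher and 22.4% lower among all genes. With library totals in place of TMM factors, 3 processing genes were higher and 7 lower, 1 chaperone and supply gene was higher and 14 lower, 0 variants were higher and 6 lower, and 0 S phase genes were higher and 20 lower. On that scale all genes shifted as well, with 3091 of 16536 tested higher and 4885 lower. Casp8ap2, a factor of the nuclear bodies where histone genes are transcribed, averaged 14.7 ± 0.584 CPM in OVA T cells against 30.7 ± 1.94 CPM in B16-F10 T cells (log2 fold change -1.01, SE 0.0617, adjusted p = 1.45e-13, edgeR). Daxx averaged 139 ± 0.608 CPM in OVA T cells against 56.2 ± 1.35 CPM in B16-F10 T cells (log2 fold change 1.36, SE 0.0284, adjusted p = 7.22e-24, edgeR). Mki67 averaged 99.1 ± 3.63 CPM in OVA T cells against 159 ± 2.07 CPM in B16-F10 T cells (log2 fold change -0.62, SE 0.0260, adjusted p = 4.09e-17, edgeR).

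T cells against tumor cells gave the S phase list the same direction in both labels, with 28 of 32 genes lower in the OVA label and 27 of 32 in the B16-F10 label. Of the 38 histone members tested, 24 were lower and 3 higher in T cells of the OVA label, and 4 were lower and 17 higher in T cells of the B16-F10 label, beside 40.2% and 40.4% of all genes lower.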

How the data were processed

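Each library was made from mRNA taken with poly-T beads, per the labels' protocols. The deposited table holds the authors' raw read counts per gene, which were used as deposited. HISAT2 2.0.5, featureCounts 1.6.0 and the build GRCm39 are named in the submitters' processing notes. The strand setting, the treatment of reads that map to several genes and the annotation release are not given in the sources used here. Every count column was used, and no row lacked a gene.

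Members were all genes with the stated symbols. Members and gene lists were chosen with earlier results of these data known. Levels are CPM, each count divided by its library's total, as mean ± SD of 3 libraries. Tests ran in R 4.3.3 with edgeR 4.0.16: filterByExpr by group, TMM scaling, quasi-likelihood F tests and Benjamini-Hochberg adjustment over all genes tested, with a threshold of 0.05. For each OVA effect the fit took the 6 libraries of 1 cell fraction, and for the difference of these effects and for T cells against tumor cells it took all 12. SEs were derived from the F statistic. The method was tested on simulated data, with changes set only in genes expected above a minimum count per library. Many members had fewer counts, so that test does not cover their calls. Fold changes against a group at 0 counts are bounds against 3 counts over the group.

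The rule for named members took linker genes of at least 1 CPM in a group, the 3 most abundant genes of each core family, and, per comparison, up to 3 called genes at either end of the fold changes, if they averaged at least 1 CPM in the higher group. For the lists it took the 3 smallest adjusted p-values. Slbp and Npat, and other genes outside the rule, were named after their values were seen.

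Pairs of libraries within a group differed by 1.51 to 1.77 chi-square units per gene, so none is a copy of another. Same-numbered libraries of different groups correlated between -0.07 and 0.18 in their deviations from group means. The highest values joined OVA T cells and OVA tumor cells, 0.176 for replicate 1 and 0.128 for replicate 3, with -0.011 for replicate 2. Crossing replicates 1 and 3 of these groups gave -0.174 and -0.147. Pairing by number is therefore not excluded for the OVA label, and the main tests treat the libraries as independent. Alternatives were median-ratio factors, library totals, marker scaling, DESeq2 1.42.0, limma-voom (limma 3.58.1), other filters, other sets of libraries, the replicate block and leaving out each library. List sums without Cdk2 and without Apoe were added after seeing the data. Gene order, exon lengths, shared windows and stem-loops come from GENCODE M21 (GRCm38), in which all 73 members were matched by identifier. No coordinates of GRCm39 are given.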

Additional observations from a re-analysis of the deposited data

Results flagged for a closer look

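The OVA effect is the log2 fold change of the OVA against the B16-F10 label. Listed below are members named by the rule above whose OVA effect differed between T cells and tumor cells. The interaction test took all 12 libraries (edgeR, adjusted p under 0.05). Called members outside that rule are not listed. Among all 18562 genes tested 41.3% had a lower and 27.7% a higher effect in T cells, so passing alone does not set a gene apart. Each value is the effect in T cells minus that in tumor cells.

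Among linker histones the difference was -0.88 for H1f0, -3.20 for H1f10, -1.49 for H1f2 and -1.15 for H1f3. Among H2A genes it was -1.84 for H2ac11, -3.35 for H2ac18, -1.27 for H2ac19, -0.98 for H2ac25 and -2.49 for H2ac8. H2ac24 had -9.34, which has no interpretable size because B16-F10 tumor cells had 0 counts. Among H2B genes it was -2.36 for H2bc12 and -1.68 for H2bc8, while H2bc4 had 0.57, the 1 positive value. Among H3 genes it was -2.98 for H3c1, -2.18 for H3c15, -4.91 for H3c2, -2.14 for H3c3 and -1.52 for H3c6. Among H4 genes it was -2.02 for H4c4 and -1.52 for H4c9. H2ac18 and H3c2 rest on few counts in B16-F10 tumor cells, 8 and 3 over the group.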

How the results depend on the processing

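Of the counts of called members, those that moved by over 1.5 times were these. In tumor cells, OVA against B16-F10, 45 members were higher with no filter and 14 with a filter of 1 CPM in 3 libraries, against 28, and 2 were lower with library totals and 0 with melanoma marker scaling, against 1. In T cells, 1 was higher with no filter, against 0, beside 4053 of all 39122 genes tested, against 3912 of 16536. Between T cells and tumor cells of the OVA label, the 1 CPM filter gave 1 higher and 14 lower, against 3 and 24. Of all genes tested with that filter, 6437 of 16175 were higher and 6974 lower, against 6927 and 7467 of 18562. In the B16-F10 label, no filter gave 34 higher and the 1 CPM filter 10, against 17, and library totals gave 7 lower and DESeq2 2, against 4. Of all genes tested, 10096 of 44809 were higher with no filter and 7403 of 16175 with the 1 CPM filter, against 8446 of 18562. Of all 18562 genes, 8651 were lower with library totals and 6963 with DESeq2, against 7502. In the difference of the OVA effects, 2 were higher with median-ratio factors, against 1, beside 5533 of all 18562 genes, against 5147. Filters change how many members are tested, and for the scalings the cause was not tested.

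Directions turned for members that mostly missed the threshold. In tumor cells, OVA against B16-F10, H1f4 had -0.033 with library totals, and H2bc21 and H2bc4 had 0.78 and 0.71 with melanoma scaling. In T cells, H2ac19 had -0.0109 with library totals, and H3c6, at 0.0005 in edgeR, had -0.084 with the replicate block, -0.0554 with library totals, -0.0511 with DESeq2, -0.21 with limma-voom, -0.0047 with no filter and -0.0351 with T cell marker scaling. Between T cells and tumor cells, H2ac11 of the OVA label had 0.0724 with median-ratio factors and 0.0698 with DESeq2, and with library totals H1f3, H3c6 and H4c4 of the B16-F10 label had -0.13, -0.0041 and -0.0748.

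Leaving out 1 library at a time turned directions as well. In T cells the range was -0.0472 to 0.13 for H2ac19, -0.16 to 0.36 for H2bc12, -0.25 to 0.0048 for H2bc8, -0.48 to 0.35 for H3c6 and -0.12 to 0.0566 for H4c9. Between T cells and tumor cells of the OVA label it was -0.35 to 0.18 for H2ac11 and -0.56 to 0.16 for H3c15. In the B16-F10 label it was -0.0642 to 0.23 for H1f3, -4.37 to 6.16 for H2ac18, -0.48 to 0.42 for H3c3, -0.0407 to 0.50 for H3c6 and -0.14 to 0.37 for H4c4. Counts of called members stayed at 28 to 33 higher in OVA tumor cells and 4 to 6 lower in OVA T cells.

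With the replicate number as a block, 27 members were higher in OVA tumor cells and 6 lower in OVA T cells, against 28 and 6. The counts limit what can be seen: 34 of the 73 members were tested in none of the 4 comparisons, and none of these averaged over 0.344 CPM.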

Other observations

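H3c14 had 26 counts in 1 library of OVA tumor cells and 0 in the other 11 libraries. All of its 100-base windows recur in other annotated genes, as do those of H2ac18, H2ac19, H3c13 and H2bc18.

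Some members outside the 18 adjacent genes were also at 0 in B16-F10 tumor cells. H2ac12, the next histone gene in order, had 18, 8, 18 and 0 counts in OVA T cells, B16-F10 T cells, OVA tumor cells and B16-F10 tumor cells. It shares 89.5% of its windows with other genes.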
